A study of Homo sapiens with 2 samples.

Results

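The 669 peaks described here are the widest sites of a ZFX chromatin map. ZFX is a transcription factor with zinc fingers whose gene lies on the X chromosome. The map comes from an established line of human medulloblastoma cells, DAOY. The peaks were chosen by their width: a peak of 1200 bp or more from start to end, on chromosomes 1 to 22. They make up 4.69% (exact 95% binomial interval 4.34% to 5.04%) of 14279 autosomal peaks. The other 13610 autosomal peaks, all under 1200 bp, serve as the comparison. The whole list holds 14471 peaks. The study has 2 samples of this line: sheared chromatin precipitated with a rabbit polyclonal antibody against ZFX, and sheared chromatin without precipitation as input. Peaks were given for 1 ZFX library, and input values were not used here.

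With 1 library there is no replicate, so every value is a description of this library. Exact intervals cover counting error only. They treat peaks as independent, although neighbouring peaks are not. Read depth was not given in the sources used here, and the score of a peak is the authors' own, without a stated unit. Positions are on hg19. The tables of genes and promoters used here are on another build, GRCh38.p14, so no position was looked up in them. Gene names below are background from general knowledge of where well-known genes lie on hg19. They were added after the peaks had been seen, and only the chromosome and the order of the genes were checked. All 19 symbols lie on the chromosome of their peak in the gene table. On the 3 chromosomes with more than 1 symbol, their order is the same.

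ZFX binds DNA through an array of zinc fingers and is known for its part in the self-renewal of stem cells. It is known to bind mainly at CpG-rich promoters, close to where transcription starts. In ChIP-seq, a peak is a stretch where sequenced fragments pile up. Its width grows with the strength of the signal and with the length over which bound sites or their flanks run together.

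Promoters are shown for genes named at 3 of the widest peaks and at the peak with the highest score of the list. Because the builds differ, these sequences were not placed under the peaks. Each line gives the 250 bases before the gene start from RefSeq on GRCh38.p14, 5′ to 3′ on the gene's own strand. Capitals mark AGGCCT, the core known for ZFX, which reads the same on both strands, and the CArG box, the known site of the serum response factor, whose pattern also reads the same on both strands. EGR1 (chr5:138465229-138465478, plus strand) and FOSB (chr19:45467746-45467995, plus strand) are shown because a pair of wide peaks lies at each. UQCRH (chr1:46303448-46303697, plus strand) stands for the highest score. S100A2 (chr1:153565845-153566094, minus strand, the outer of its entries) is shown for its AGGCCT.
EGR1: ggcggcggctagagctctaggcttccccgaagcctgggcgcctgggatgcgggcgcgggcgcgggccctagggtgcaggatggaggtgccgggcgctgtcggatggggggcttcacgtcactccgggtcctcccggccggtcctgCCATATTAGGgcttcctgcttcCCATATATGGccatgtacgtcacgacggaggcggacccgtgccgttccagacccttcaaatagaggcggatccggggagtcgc
FOSB: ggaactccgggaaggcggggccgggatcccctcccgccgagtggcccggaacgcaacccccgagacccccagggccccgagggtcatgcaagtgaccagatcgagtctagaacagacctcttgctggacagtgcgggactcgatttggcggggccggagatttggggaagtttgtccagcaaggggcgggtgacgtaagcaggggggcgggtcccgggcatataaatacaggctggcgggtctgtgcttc
UQCRH: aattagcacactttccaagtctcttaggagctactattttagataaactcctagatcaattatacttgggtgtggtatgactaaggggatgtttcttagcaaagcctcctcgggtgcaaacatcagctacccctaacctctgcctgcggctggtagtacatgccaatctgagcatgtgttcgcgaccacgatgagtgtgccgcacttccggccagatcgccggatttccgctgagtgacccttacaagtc
S100A2: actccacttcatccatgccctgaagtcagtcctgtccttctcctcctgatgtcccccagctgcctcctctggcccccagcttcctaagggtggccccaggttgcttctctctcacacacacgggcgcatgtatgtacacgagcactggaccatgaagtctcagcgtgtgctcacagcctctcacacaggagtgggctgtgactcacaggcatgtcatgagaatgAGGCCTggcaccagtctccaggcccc

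The EGR1 sequence holds 2 CArG boxes, which begin 105 and 83 bases before the start. The S100A2 sequence holds 1 AGGCCT, 26 bases before the start, and the other sequences hold neither pattern. Over all 35116 promoter entries of this length, 9.20% hold AGGCCT and 1.16% hold a CArG box. Of the 17 named genes with an entry, 2 hold AGGCCT (S100A2 and RUNX1) and 1 holds a CArG box. The named genes' 19 entries had a median GC content of 68.4% and 27 CpG dinucleotides, against 58.0% and 11 over all entries. Promoters at peaks under 1200 bp were not compared, so these values are not shown to be particular to wide peaks. UQCRH had the lowest GC content among them, 49.2%, and KCMF1 the highest, 84.0%. A window of this length covers only a small part of a wide peak, and for some genes the listed start may not be the start under the peak.

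Most wide peaks were only just wide. Their median width was 1396 bp, with quartiles of 1276 and 1632 bp, and 425 of the 669 were under 1500 bp. A further 187 measured 1500 bp to under 2000 bp, 49 measured 2000 bp to under 3000 bp, and 8 were wider than that. The other peaks had a median of 468 bp. The limit cuts through a continuous slope, since 259 peaks fell in the 100 bp below it and 202 in the 100 bp above it. The narrowest wide peak measured 1201 bp and scored 315.6 (chromosome 5, 180648799 to 180649999), and another just inside the limit measured 1203 bp and scored 3100 (chromosome 19, 18942632 to 18943834). Just outside it, a peak of 1199 bp scored 716.8 (chromosome 9, 36486569 to 36487767) and a peak of 1198 bp scored 419.98 (chromosome 8, 37962346 to 37963543). Together the wide peaks covered 1021 kb, 12.6% of the 8.13 Mb under autosomal peaks.

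Width and score come from the same peak call, so the score of the wide peaks is a description. Their median score was 614.6, with quartiles of 415.4 and 932.7, and that of the other peaks was 102.8, with quartiles of 64.5 and 201.3. Only 2 wide peaks scored under 100, against 6636 of the others (48.8%). Wide peaks were not the same set as the strongest ones. Of the 299 autosomal peaks that scored at least 1000, 150 were wide (50.2%, interval 44.4% to 56.0%). Of the 31 at 3100 or more, 17 were wide. Several peaks shared a score of exactly 3100, for a reason not stated in the sources used here. The order of scores at the top of the list is therefore uncertain.

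**Figure D1:**
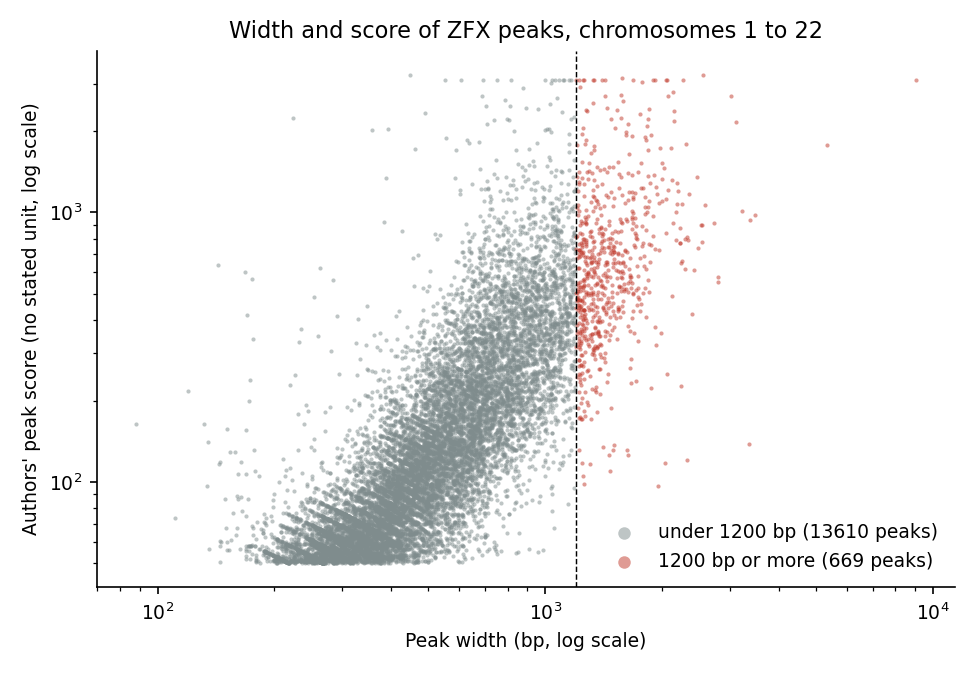
Width of each autosomal peak (horizontal, bp, log scale) against the authors' score (vertical, no stated unit, log scale); red points are the 669 wide peaks and grey points the 13610 others, parted by the dashed line at 1200 bp. Only 16 red points lie below a score of 150, at the sparse lower edge of the red points.

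A small group of wide peaks had low scores for their width. Scores under 150 belonged to 16 wide peaks on 8 chromosomes, from 96.8 to 138.2. The next score among wide peaks was 170.7. This limit was set after the scores had been seen. The median width was 1484.5 bp in this group and 1394 bp in the other 653. The longest run of each chromosome without peaks lay at most 2 Mb from 3 of the 16 (interval 4.05% to 45.6%). The same held for 17 of the other 653 (2.60%, 1.52% to 4.14%), and the intervals overlap. The closest was on chromosome 9 (66455291 to 66456702), where a peak of 1412 bp with a score of 134.6 had its centre 706 bp from that run. A wide peak of 1677 bp that began 375 bp after this peak scored 1917. A peak on chromosome 6 (58776035 to 58779399) was the fifth widest of all, 3365 bp, at a score of only 138.2. The nearest other peak was 633 kb away. The peaks were not screened for repeated sequence, and its part in these low scores was not tested.

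The wide peaks were spread unevenly over the chromosomes. As a share of its peaks, chromosome 7 stood highest, with 89 wide peaks among 945 (9.42%, interval 7.63% to 11.5%). Chromosome 14 followed with 48 of 636 (7.55%, 5.62% to 9.88%), chromosome 9 with 48 of 699 (6.87%, 5.11% to 9.002%) and chromosome 5 with 53 of 780 (6.79%, 5.13% to 8.79%). The intervals of these 4 chromosomes lay above the share of all autosomes, 4.69%. Chromosome 1 held nearly as many wide peaks as chromosome 7, 86, but among 1635 peaks (5.26%, 4.23% to 6.46%). Chromosomes 1 and 7 together carried 26.2% of all wide peaks. Per 10 Mb between the outermost peaks the order was another one. Chromosome 19 led with 7.31 wide peaks, followed by chromosome 7 with 5.61, chromosome 14 with 5.57 and chromosome 17 with 5.32, against 2.41 over all autosomes, and chromosome 5 with 2.93 no longer lay apart.

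At the other end, chromosome 18 held a single wide peak among 151 (0.662%, 0.0168% to 3.63%), a peak of 1273 bp at 56530254 to 56531526 with a score of 496.3. Chromosome 8 held 6 of 394 (1.52%, 0.561% to 3.28%), chromosome 20 held 7 of 375 (1.87%, 0.754% to 3.81%) and chromosome 4 held 7 of 370 (1.89%, 0.764% to 3.86%). Chromosome 10 with 11 of 491 (2.24%, 1.12% to 3.97%) and chromosome 16 with 12 of 490 (2.45%, 1.27% to 4.24%) also had intervals below the autosomal share. For the other 12 chromosomes the interval included that share, and none of the intervals was adjusted for 22 chromosomes. When the limit was raised to 1500 bp, only chromosomes 7 and 10 lay apart. On chromosomes X and Y, outside the set, 3 of 192 peaks reached 1200 bp (1.56%, 0.323% to 4.498%).

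**Figure D2:**
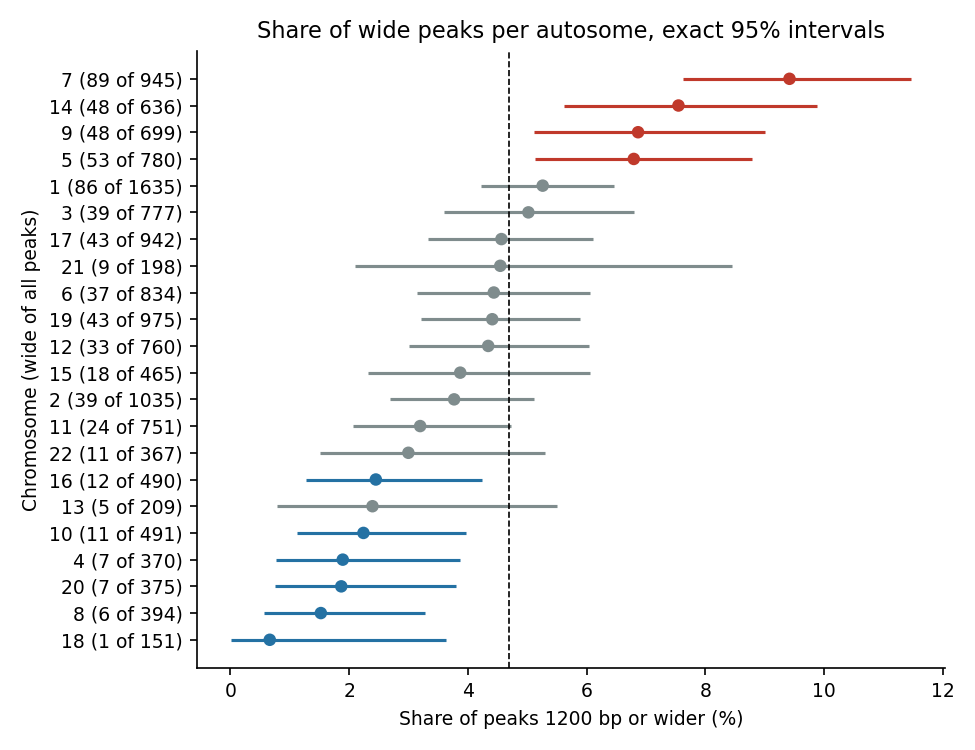
Share of each autosome's peaks that were 1200 bp or wider (horizontal, percent), with the counts beside each chromosome number; points are shares, lines are exact 95% binomial intervals and the dashed line is the share over all autosomes. The intervals of chromosomes 7, 14, 9 and 5 (red) lie above it and those of 6 chromosomes (blue) below it.

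Chromosomes also differ in score, so the count of wide peaks was set beside the count that the scores alone would give. For each chromosome, every peak was given the share of wide peaks in its band of score on the other autosomes. On chromosome 7 the scores gave 54.7 wide peaks and 89 were listed, 1.63 times as many, the highest ratio of the 22. Chromosome 14 had a ratio of 1.29, chromosome 9 of 1.23 and chromosome 5 of 1.21. Chromosomes 6 and 1, whose shares did not lie apart, came close to these with 1.18 and 1.17. The ratios carry no interval, so small distances from equal numbers cannot be read as differences. Chromosome 20 had a ratio of 0.394, with 7 listed against 17.8, although its median score, 116.5, was close to the 117.0 of chromosome 7. Chromosome 18 had the lowest ratio, 0.173, with 1 listed against 5.77. The median width of wide peaks was 1445 bp on chromosome 7 and 1343 bp on chromosome 20, both between the quartiles of all wide peaks. The copy number of chromosomes in DAOY was not measured here, and more copies and wider enrichment cannot be told apart.

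**Figure D3:**
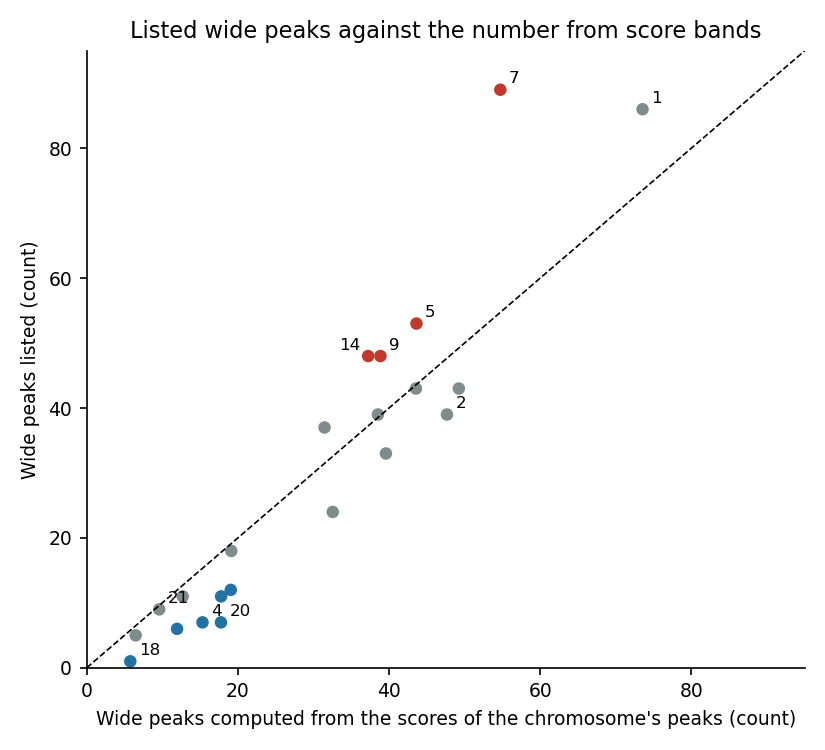
Wide peaks listed on each autosome (vertical, count) against the number computed from the scores of its peaks (horizontal, count); each point is 1 chromosome, coloured red or blue where the interval of its share lay above or below that of all autosomes, and the dashed line marks equal numbers. Chromosome 7 lies farthest above the line, at 89 against 54.7.

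In windows of 1 Mb, counted by the centre of each peak, 484 of the 2110 windows with any peak held a wide one (22.9%). Most of these held only 1: 359 windows had 1 wide peak, 86 had 2, 21 had 3, 15 had 4 and 3 had 5. Windows with company held 310 of the wide peaks (46.3%, 42.5% to 50.2%). The nearest other wide peak was at a median distance of 484 kb between centres, and for 120 wide peaks (17.9%) it lay within 100 kb. The share of peaks that were wide was set against how full a window was, and the intervals overlapped. It was 3.07% (1.54% to 5.43%) where a window held a single peak, 4.44% (3.81% to 5.14%) in windows of 5 to 9 peaks and 4.90% (4.20% to 5.68%) in windows of 20 or more. On chromosome 7, 50 of 131 windows with a peak held a wide one (38.2%), against 21.9% of windows on the other autosomes.

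The 18 windows with 4 or 5 wide peaks lay on 10 chromosomes, 6 of them on chromosome 7 and 3 on chromosome 19. The 3 windows with 5 were of 2 kinds. On chromosome 7 between 99 and 100 Mb the wide peaks were spread over 637 kb and scored 314.8 to 2441. On chromosome 14 between 50 and 51 Mb they were spread over 546 kb and scored 257.0 to 824.9. On chromosome 2 between 133 and 134 Mb all 5 lay within 15.1 kb (133018599 to 133033706), and 3 of them scored under 150. The window of chromosome 21 between 9 and 10 Mb was of this second kind, with 4 wide peaks within 20.0 kb (9825383 to 9845334). Of the 18 windows, these last 2 were the ones whose wide peaks lay within 20 kb.

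A smaller share of wide peaks than of the others had a neighbour. A neighbour here is another peak at most 1 kb away, edge to edge. It was present for 155 of 669 wide peaks (23.2%, 20.0% to 26.6%) and for 4440 of 13610 others (32.6%, 31.8% to 33.4%), so the 2 intervals do not overlap. With the limit at 1500 bp they did overlap, at 25.8% (20.4% to 31.8%) and 32.3% (31.5% to 33.1%). The share also falls with score, and within bands of score the intervals of wide and other peaks overlapped. Among peaks scoring 100 to under 150, 28.6% (8.39% to 58.1%) of 14 wide peaks and 36.0% (34.0% to 38.0%) of other peaks had a neighbour. From 150 to under 250 the shares were 27.3% (13.3% to 45.5%) of 33 wide peaks and 32.5% (30.6% to 34.6%) of others. Among peaks scoring 250 to under 400, 31.1% of wide and 27.1% of other peaks had a neighbour. From 400 to under 600 the shares were 23.5% and 25.2%, from 600 to under 1000 they were 20.1% and 24.6%, and from 1000 up they were 19.3% and 21.5%. Scores under 100 belonged to only 2 wide peaks, of which 1 had a neighbour, against 34.1% of the others. Weighted to the scores of the wide peaks, 25.1% of the other peaks had a neighbour. By width, the share fell from 35.5% at 300 to under 400 bp to 22.9% at 1000 to under 1200 bp and 21.6% at 1200 to under 1500 bp. It was 29.8% (18.4% to 43.4%) among the 57 peaks of 2000 bp or more.

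**Figure D4:**
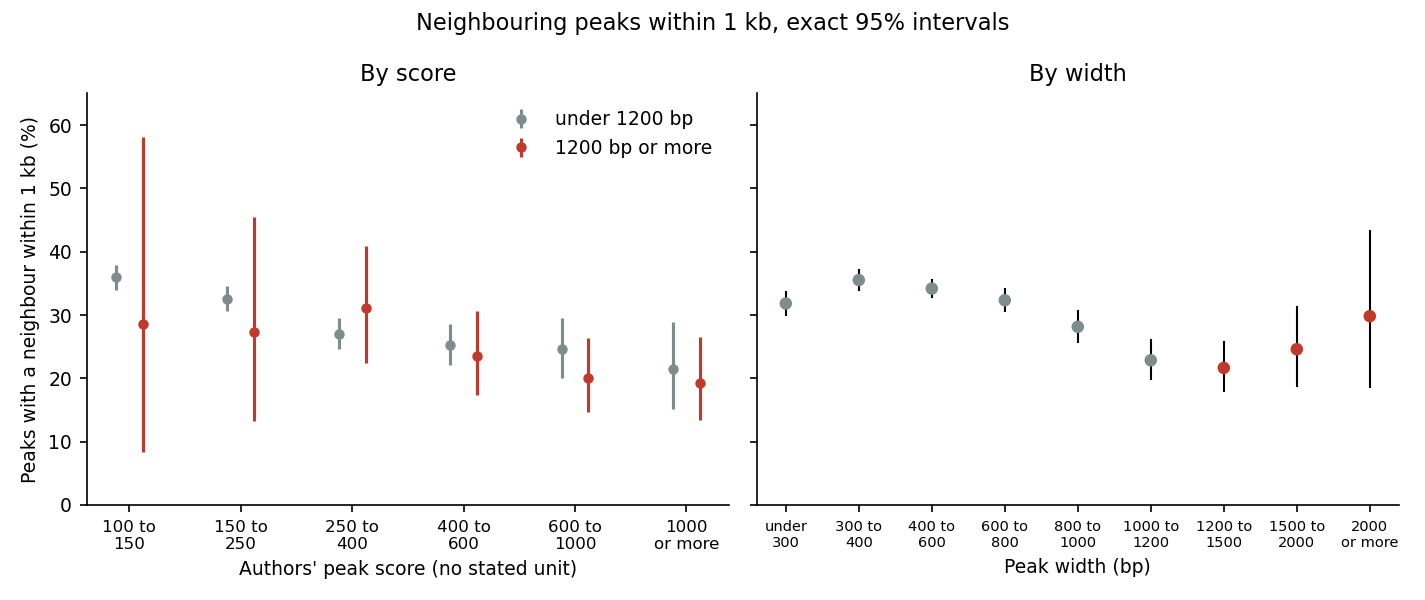
Share of peaks with another peak at most 1 kb away (vertical, percent), by the authors' score for wide (red) and other (grey) peaks on the left and by width on the right; lines are exact 95% binomial intervals, and the band of scores under 100, with 2 wide peaks, is left out. In the bands drawn, the red and grey intervals overlap, and the share is lowest near the width limit.

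The neighbours of wide peaks had a median width and score near those of all peaks under 1200 bp. The 155 wide peaks had 166 neighbours, counted per side, of which 10 were wide themselves, as 5 pairs counted from both sides. The neighbours had a median width of 519 bp and a median score of 100.7, against 468 bp and 102.8 for all peaks under 1200 bp. Scores under 100 belonged to 83 of the neighbours (42.2% to 57.8% of them) and to 48.8% of all peaks under 1200 bp. Of the 166, 155 scored lower than the wide peak beside them (93.4%). For neighbours of other peaks the share was 48.5%, but pairs of peaks under 1200 bp count from both sides, which holds it near an even split. The 93.4% leans on the choice by width, since 666 of the 669 wide peaks scored above the median of the list. The difference between the shares is therefore not a result about neighbours. Gaps were short, with a median of 142 bp, and 66 (39.8%) were at most 100 bp, against 36.4% of gaps beside other peaks. A neighbour on both sides was present for 11 wide peaks (1.64%, 0.824% to 2.92%) and for 2.53% of the others. In a wider circle of 50 kb, the median was 1 further peak for wide and for other peaks alike, while 35.3% of wide and 28.6% of other peaks had none.

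The 5 pairs of wide peaks within 1 kb lay on chromosomes 5, 9, 16, 17 and 21. Repeats at these pairs were not examined. On chromosome 5 a peak of 1244 bp (141703482 to 141704725) was followed after 5 bp by a peak of 1347 bp, with scores of 204.9 and 356.5. On chromosome 17 a peak of 1897 bp (1011936 to 1013832) and a peak of 1564 bp lay 105 bp apart, with scores of 968.3 and 768.0. The scores were 222.9 and 98.5 on chromosome 16. They were farther apart in the other two pairs, 134.6 and 1917 on chromosome 9 and 3100 and 193.6 on chromosome 21.

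Of the genes named here, FOSB, EGR1 and IER2 are known as immediate early genes, which cells switch on soon after a growth signal without new protein. They were singled out after the peaks had been seen, and other genes of this class were not looked up. FOSB, which encodes a partner in the AP-1 transcription factor, lies at a pair of wide peaks on chromosome 19. The first measured 3215 bp (45971072 to 45974286) with a score of 1012, and the second 2543 bp (45976879 to 45979421) with a score of 900.2. From end to end the pair spanned 8350 bp, and the gene is 7184 bp long in the gene table. A narrow peak of 430 bp with a score of 108.9 ended 2 bp before the second.

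EGR1, a zinc finger transcription factor gene that answers serum, also lies at a pair of wide peaks, on chromosome 5. Wide peaks of 2532 bp (137800904 to 137803435) and 2727 bp (137804021 to 137806747) scored 778.9 and 910.3. They spanned 5844 bp, against a gene of 3825 bp in the gene table. A peak of 428 bp with a score of 62.8 lay between them, 40 bp from the first and 117 bp from the second. IER2 had a wide peak of 2525 bp that scored 896.9 (chromosome 19, 13263066 to 13265590). It was flanked by narrower peaks 539 bp before it and 102 bp after it, which scored 80.7 and 53.6. A further peak of 660 bp that scored 489.5 (13261080 to 13261739) ended 92 bp before the first of these.

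Some other wide peaks without a neighbour within 1 kb scored higher, and those that follow are examples. Others without one scored lower, such as those at SLC16A1 (552.2) and MAPK6 (421.7). The first peak at FOSB had no neighbour within 1 kb either, since the nearest peak lay 1601 bp away. A peak of 3107 bp that scored 2173 (chromosome 9, 100744742 to 100747848) lies at ANP32B, a histone-binding chaperone. Its nearest neighbour was 59.9 kb away. The peak at CDK13, a kinase that phosphorylates RNA polymerase II, measured 3013 bp on chromosome 7 (39988526 to 39991538) and scored 2696, with the nearest peak 182 kb away. The highest score of the list, 3233, belonged to a wide peak of 2555 bp on chromosome 1 (46767065 to 46769619). It lies at LRRC41 and at UQCRH, a subunit gene of respiratory complex III, and its nearest neighbour was 36.5 kb away. KCMF1, a ubiquitin ligase gene, lies at the widest peak of chromosome 2, 2265 bp (85197346 to 85199610) with the shared score of 3100.

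Further genes were named at wide peaks, with scores from 421.7 to 1078. S100A2, a calcium-binding protein gene, lies at the third widest peak, 3481 bp wide and scoring 975.7 (chromosome 1, 153537741 to 153541221). KMT2E, a gene of the family of histone methyltransferases, follows with 3380 bp on chromosome 7 (104651548 to 104654927) and 935.2. TRIP6, an adaptor protein gene, lies at a peak of 2797 bp that scored 575.6 (chromosome 7, 100463132 to 100465928). SLC16A1, which encodes a lactate transporter, had 2790 bp on chromosome 1 (113497950 to 113500739) with 552.2. PURB, which encodes a protein that binds single-stranded DNA, MARCKS, a membrane-bound substrate of protein kinase C, and MAPK6, an atypical MAP kinase, completed the named genes among the 20 widest, with widths of 2476, 2418 and 2390 bp and scores of 736.2, 609.5 and 421.7. Just beyond the 20, RUNX1, a master regulator of blood formation, lies at a peak of 2259 bp that scored 658.8 (chromosome 21, 36260628 to 36262886). KLC1 on chromosome 14, a kinesin light chain gene, had the same width and scored 1078, and HNRNPU, an RNA-binding protein gene, had 2232 bp on chromosome 1 and 872.2.

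The 2 widest peaks of all sat in dense groups. The widest, on chromosome 21 (9825383 to 9834418), was 9036 bp long and scored 3100, and its next neighbour began after 15 bp. Within 22.8 kb this group held 8 peaks with a median score of 161.9, and the 4 wide ones among them had a median of 376.5. The second widest, on chromosome 19 (13949343 to 13954689), was 5347 bp long and scored 1775. It lies beside the cluster of microRNA genes that includes MIR23A, in a group of 9 peaks over 20.5 kb, of which 3 were wide with scores of 508.7, 1775 and 349.1. The group on chromosome 2 held 17 peaks within 27.4 kb, 5 of them wide. There the wide peaks scored 96.8 to 650.2, while the highest score of the group, 3100, belonged to a peak of 1119 bp (133011850 to 133012968), just too narrow for the set. At FOSB and EGR1, by contrast, both wide peaks outscored each narrow peak beside them. The part of repeats, or of signal also present in the input, in the groups on chromosomes 2, 19 and 21 was not tested. Whether their width and density measure ZFX binding alone was therefore not tested either.

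**Figure D5:**
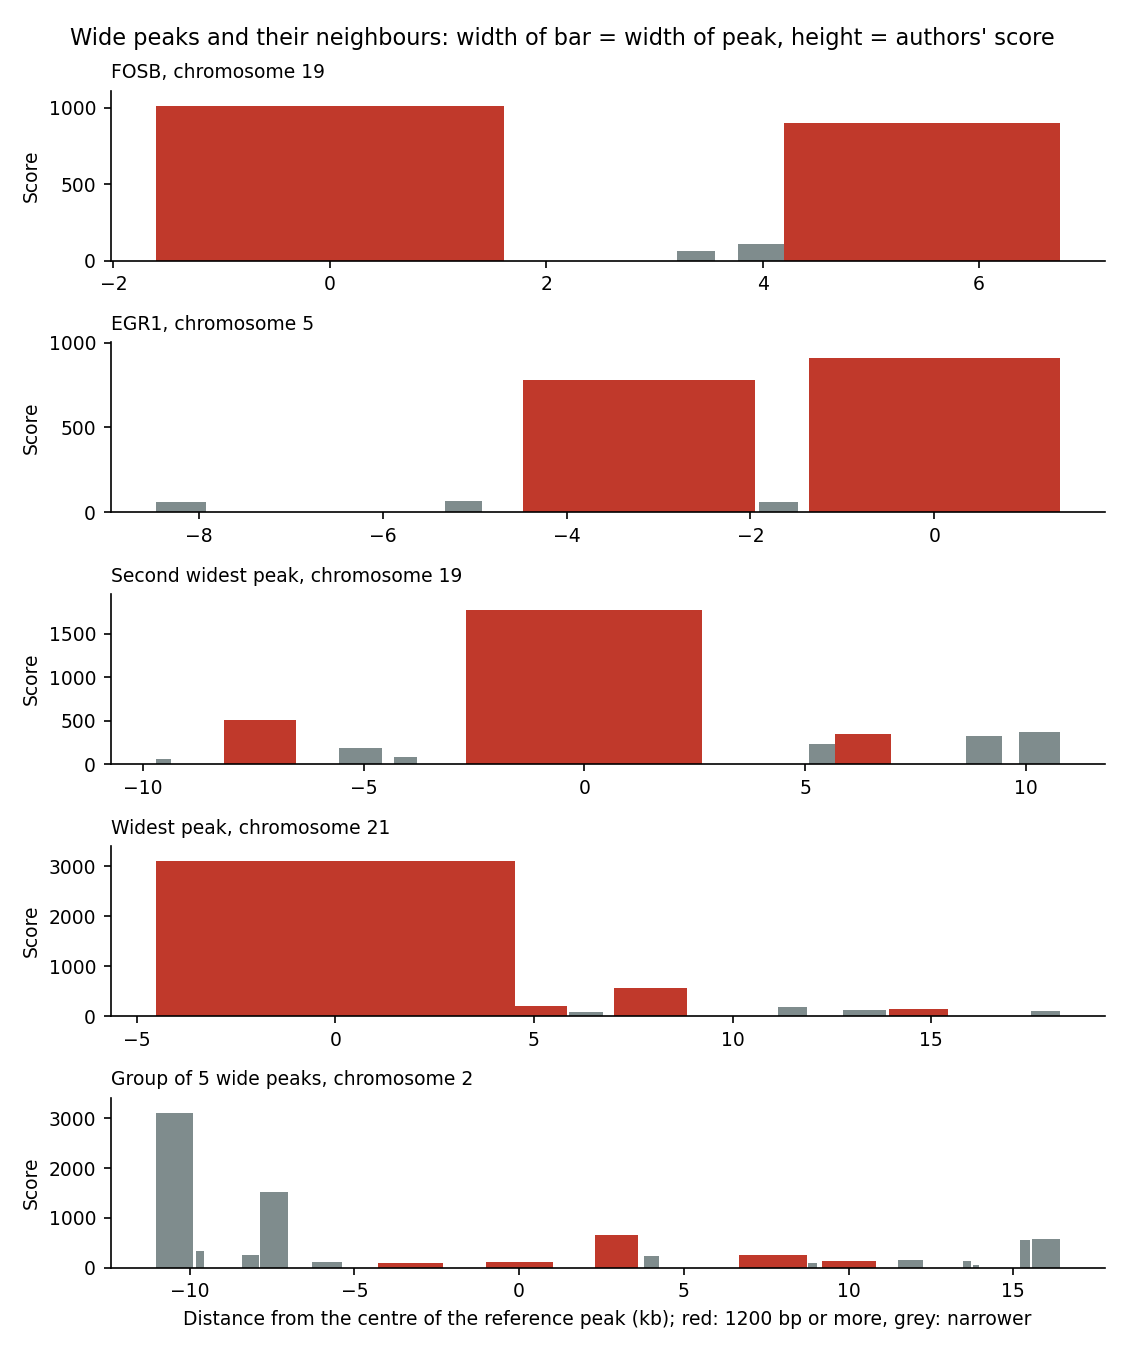
Peaks at FOSB, EGR1, the second widest peak, the widest peak and the group on chromosome 2, placed by distance from the centre of a reference peak (horizontal, kb); each bar is 1 peak, as wide as the peak and as high as the authors' score (vertical, no stated unit), red for 1200 bp or more and grey for narrower. The tallest bar is red in every panel except that of the group on chromosome 2, where it is grey. At FOSB and EGR1, 2 red bars stand over low grey ones.

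The 20 widest peaks lay on 8 chromosomes, with 4 each on chromosomes 1, 7 and 19. Their scores ran from 138.2 to 3233 with a median of 922.8, and 8 of the 20 reached 1000. A neighbour within 1 kb was present for 8 of the 20. Joining peaks at most 5 kb apart left 638 groups with a single wide peak, 8 with 2 and 4 with 3 or more, the last on chromosomes 2, 16, 19 and 21. The part of repeats in these last 4 groups was not tested. Along the chromosomes, 20 wide peaks (2.99%) had their centre at most 2 Mb from the longest run without peaks, against 3.14% of the others. Within 2 Mb of the outermost peaks the shares were 10.2% (7.98% to 12.7%) and 8.53% (8.07% to 9.01%).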

How the data were processed

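ZFX ChIP-seq peaks of 1 DAOY library were analysed, grouped by the antibody in the labels. The authors deposited a peak list without a header: start and end, taken as counted from 0 and printed counted from 1, and a score without a stated unit. Per the submitters' processing notes, Bowtie2 2.0.0 and hg19 were named without roles. The names of the peaks contain MACS, a peak caller; settings were not given in the sources used here. The set, the regions described and the gene names were chosen with earlier results of these data known. The rule for named items allowed a gene only from an hg19 annotation, which was not used here. It gave the 20 widest peaks, the widest of each chromosome and the fullest windows, and the gene names stand outside it. Width is end minus start. Bands of score had edges at 50, 100, 150, 250, 400, 600 and 1000. Shares have exact Clopper-Pearson 95% intervals, and no test was run. The counting steps were tested on simulated data. Alternatives changed width limit, windows, distance, joining and score. Software was pandas 2.3.3, numpy 2.4.6, scipy 1.17.1, matplotlib 3.10.9 and Python 3.11.15.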

Additional observations from a re-analysis of the deposited data

How the results depend on the processing

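Of 35 alternatives, 4 of which were chosen after seeing the data, 20 kept the value within its interval or within 1.5 times. Most of the other 15 follow from the alternative's own construction. A limit of 1000 bp gave 1334 wide peaks, 1500 bp gave 244, and joining peaks at most 1 kb apart gave 1801. The number of chromosomes lying apart, 10, fell to 2 at 1500 bp, both among the 10. It was 14 at 1000 bp and 14 per Mb of span, each with 9 of the 10, and 11 for joined peaks, with 8 of the 10. The share of wide peaks with another in their window was 35.4% at 500 kb, 80.9% at 5 Mb, 66.3% with the limit at 1000 bp and 29.1% at 1500 bp. The share of wide peaks with a neighbour was below that of others in each of 9 alternatives, and only at 1500 bp (25.8%) did the intervals overlap. None of these alternatives compared wide and other peaks within bands of score, where the intervals overlapped. The median number of peaks around a wide peak was 0 within 10 kb, as around other peaks, and 11 within 500 kb, against 10 around other peaks. Among peaks scoring above the median it was 0, against 1 around other peaks. Wide peaks at most 5 Mb from the longest run without peaks made up 6.13%, and within 1 Mb and 5 Mb of the outermost peaks 5.98% and 16.3%. No paired analysis was possible because 1 library had peaks. Depth is unknown, so wide regions split or missed at low depth cannot be counted.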
